A study of Mus musculus with 2 samples.

Results

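Among nuclei of mouse midbrain dopamine neurons, those in which RNA of the aldehyde dehydrogenase gene Aldh1a1 was detected, and RNA of 4 other subtype genes was not, are described here. A nucleus was a member when it held at least 2 Aldh1a1 UMIs (unique molecular identifiers, each standing for 1 captured RNA molecule) and no UMI of Sox6, Calb1, Anxa1 or Otx2. Of 12065 nuclei with at least 500 detected genes, 440 were members. They came from 2 libraries of sorted nuclei from the ventral midbrain of adult mice that carried DAT-IRES-Cre and CAG-Sun1/sfGFP. In these mice, cells that have expressed Cre from the dopamine transporter locus carry a nuclear membrane protein fused to GFP, by which their nuclei were sorted as GFP+ singlets. The male library pooled 2 mice and the female library 3 mice, so that sex and library cannot be told apart. No treatment or control group was involved, and every nucleus, compared or not, carried both alleles. After the minimum on detected genes, the male library held 6556 nuclei and 21609454 UMIs and the female library 5509 nuclei and 19843000 UMIs. The 2 libraries shared 6 cell barcodes.

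Dopamine neurons of the ventral midbrain make dopamine from tyrosine with tyrosine hydroxylase and aromatic amino acid decarboxylase, load it into vesicles and take it back up through the dopamine transporter. They fall into subtypes that differ in position and in target. Sox6, a transcription factor, marks neurons found mainly in the ventral substantia nigra, and Calb1, a calcium-binding protein, and Otx2, a transcription factor, mark neurons that lie more dorsally or in the ventral tegmental area. Aldh1a1 oxidises retinaldehyde and the aldehyde formed from dopamine, and it is expressed in many Sox6 neurons and in part of the ventral tegmental area. Anxa1, a calcium- and phospholipid-binding protein, marks a part of the Aldh1a1 neurons.

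The members were few in each library and alike in number. They made up 3.63% of the kept nuclei of the male library (238 nuclei, exact 95% binomial interval 3.19 to 4.11%) and 3.67% of the female library (202 nuclei, 3.19 to 4.20%). These intervals cover counting error only. Of the 1984 nuclei with at least 2 Aldh1a1 UMIs, 1392 also held a Sox6 UMI and are called Aldh1a1 Sox6 nuclei. Of the 592 without Sox6, 152 held a UMI of Calb1 (83 nuclei), Anxa1 (61) or Otx2 (21), and 12 of these held more than 1 of the 3 genes. The remaining 440 are the members. Aldh1a1 lies at chr19:20492715-20643465 on the plus strand (mm10, GENCODE M21), between Anxa1 at chr19:20373428-20390944 and its paralog Aldh1a7 at chr19:20692953-20727562, both on the minus strand. Reads of the paralogs may be hard to tell apart, and how they were shared out was not tested. Aldh1a7 was at 13.3 CPM (UMI counts scaled to 1e+06 UMIs of the class and library) in the male members and 9.36 CPM in the female ones.

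The members were chosen by their UMIs of Aldh1a1, Sox6, Calb1, Anxa1 and Otx2, whose values are given as a description. Aldh1a1 was at 957 CPM in the male members and 916 CPM in the female ones, against 632 and 599 CPM in the Aldh1a1 Sox6 nuclei and 146 and 187 CPM in all kept nuclei that were not members. These levels are not matched on depth, and members and Aldh1a1 Sox6 nuclei were both cut at 2 Aldh1a1 UMIs. Per nucleus the order was the reverse. The mean was 2.71 (male) and 2.91 (female) Aldh1a1 UMIs in the members and 3.01 and 3.33 in the Aldh1a1 Sox6 nuclei. Most members sat at the threshold. Aldh1a1 was at 2 UMIs in 244 of them, at 3 in 112 and at 4 or more in 84. Just outside, 532 nuclei had 1 Aldh1a1 UMI and none of the other 4 genes, and 295 nuclei met the rule apart from 1 Sox6 UMI. In a nucleus that does not express Aldh1a1, free RNA can still give UMIs. When all nuclei were clustered, cluster 9 had little Aldh1a1, with 12.1 CPM in male and 27.7 CPM in female nuclei. There, 1 of 284 male nuclei (0.352%) and 2 of 214 female nuclei (0.935%) held 2 or more Aldh1a1 UMIs, at median depths of 2248 and 2408 UMIs, and none was a member. In cluster 4, at median depths of 2351 and 2535 UMIs, 23.1 and 30.9% of nuclei did. Because Aldh1a1 is low in cluster 9, few such nuclei were bound to be found there. How many members owe their Aldh1a1 UMIs to free RNA was not tested.

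Members were shallower than the Aldh1a1 Sox6 nuclei. The median member held 2563 UMIs in the male library and 2841 in the female library, whereas the median Aldh1a1 Sox6 nucleus held 4081 and 4616 UMIs. When the nuclei with at least 2 Aldh1a1 UMIs were split into 4 equal groups by depth, members made up 49.2% of the shallowest group of the male library and 5.08% of the deepest. In the female library the shares were 40.0 and 5.77%. Shares fell at every step in between, and the intervals of the shallowest and deepest groups did not overlap in either library. A count of 0 UMIs does not show that an RNA is absent, and a nucleus with Sox6 RNA of which no molecule was captured also meets the rule. How many members are of this kind was not tested. Applied after thinning each nucleus to 1000 UMIs, which left out 233 shallower nuclei, the rule found 1.93% of male and 2.04% of female nuclei. The main tests therefore compare members with nuclei of the same depth, drawn within bins 0.25 wide on the log2 scale of UMIs. Fits without depth matching are given as an alternative.

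**Figure D1:**
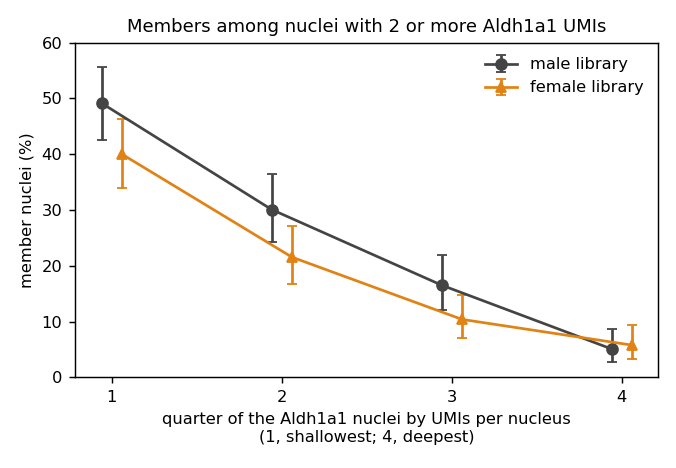
Share of members (%) among nuclei with at least 2 Aldh1a1 UMIs, in 4 equal groups by UMIs per nucleus within each library; points are shares and bars exact 95% binomial intervals. The share fell from 49.2 to 5.08% in the male library and from 40.0 to 5.77% in the female library.

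The members carried the RNAs that define dopamine neurons. In all 238 male and 202 female members, Th, tyrosine hydroxylase, was at 369 and 499 CPM, Slc6a3, the dopamine transporter, at 543 and 660 CPM, and Ddc, the decarboxylase, at 1031 and 830 CPM. The vesicular transporter Slc18a2 was at 464 CPM in the male members and 1091 CPM in the female ones, a difference between the libraries that the other kept nuclei had as well (448 and 1111 CPM). Nr4a2 and Pitx3, transcription factors of dopamine neuron identity, were at 188 and 192 CPM and at 31.1 and 37.5 CPM. The label of dopamine neurons therefore had all 6 of its defining markers in the members of each library.

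RNAs of other cell types were scarce in the members. Among GABAergic markers, Gad2 had 2 UMIs and Gad1 1 UMI over all 440 members, and Slc32a1 had none. Slc17a6, the vesicular glutamate transporter, had 0 UMIs in the male members and 7 in the female ones (10.9 CPM, against 6.02 and 6.72 CPM in the other kept nuclei). The 6 oligodendrocyte markers summed to 120 CPM in the male members and 45.3 CPM in the female ones, against 108 and 62.2 CPM in the other kept nuclei. The 4 astrocyte markers had 6 UMIs in all, the 3 endothelial markers 8, the 2 markers of oligodendrocyte precursors 1 and the 3 serotonergic markers 1. Mitochondrial genes took 0.0375% of the UMIs of male members and 0.0145% of those of female members, against 0.0351 and 0.0144% in the other kept nuclei. Scrublet, which scores nuclei for likeness to simulated doublets, placed 4.62% of male and 2.97% of female members in the top 6% of scores. The shares were 5.48 and 5.01% of the other kept nuclei and 12.5 and 11.3% of Aldh1a1 Sox6 nuclei. Of the Aldh1a1 nuclei without Sox6 that held Calb1, Anxa1 or Otx2, 25.3 and 9.09% lay there.

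To see where the members lie among all nuclei, the 12065 nuclei were clustered without the 5 genes of the rule and further subtype genes. Of the genes left out, 9 were among the 3000 features chosen for clustering. The 16 clusters were numbered by size. More members fell in cluster 4 than in any other cluster of either library, with 87 of 238 male members (36.6%, exact interval 30.4 to 43.0%) and 77 of 202 female members (38.1%, 31.4 to 45.2%). Cluster 6 followed, with 15.5 and 21.8%. Clusters 4 and 6 together held 245 members (55.7%) but 153 of 1392 Aldh1a1 Sox6 nuclei (11.0%). Clusters 1, 2 and 3 held 141 members (32.0%) and 1066 Aldh1a1 Sox6 nuclei (76.6%). The other 54 members were spread over 8 of the remaining 11 clusters. Clusters rest on the RNA of the same nuclei, so these shares are a description without a test.

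**Figure D2:**
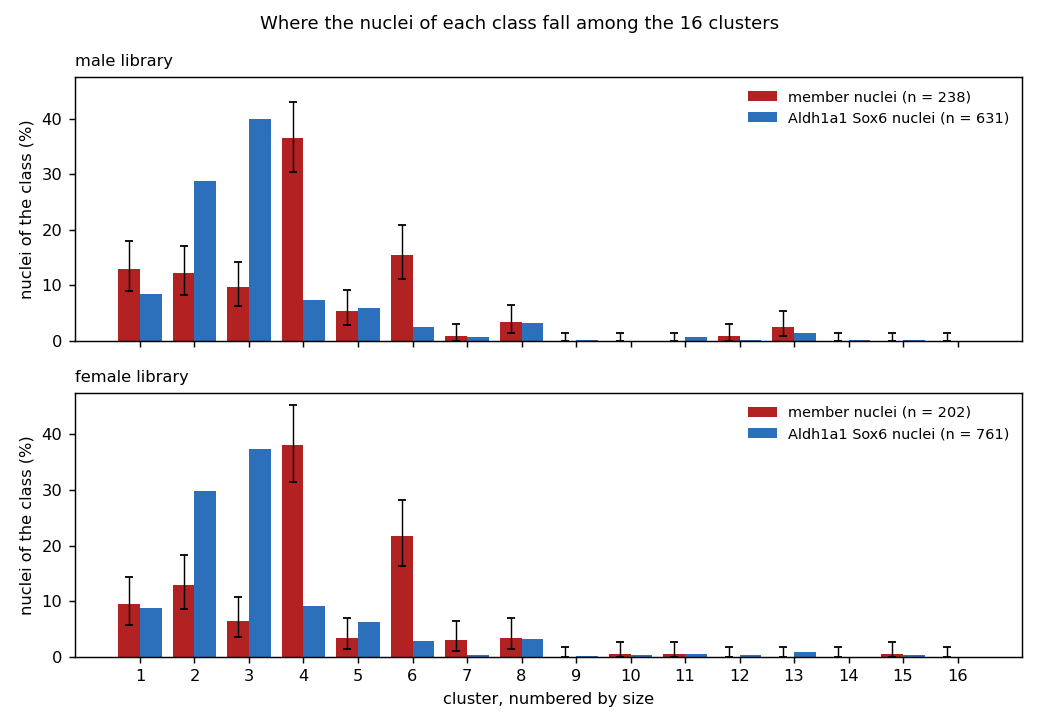
Share of the nuclei of a class (%) in each of 16 clusters, for members (red, with exact 95% binomial intervals) and Aldh1a1 Sox6 nuclei (blue), in each library. Members peak in cluster 4 (36.6 and 38.1%) and Aldh1a1 Sox6 nuclei in cluster 3 (39.9 and 37.5%).

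The clusters that held most members were low in Sox6 also in their other nuclei. With members left out, Sox6 was at 130 CPM (male) and 151 CPM (female) in cluster 4 and at 69.7 and 113 CPM in cluster 6, against 353 and 405 CPM over all kept nuclei. In clusters 2 and 3 it was at 640 to 789 CPM and in cluster 1 at 377 and 422 CPM, near the level over all kept nuclei. The median member of clusters 1, 2 and 3 held 2387 UMIs (male) or 2829 UMIs (female). Aldh1a1 itself was frequent in both neighbourhoods, in 23.1 and 30.9% of the nuclei of cluster 4 and in 30.3 and 37.8% of those of cluster 3. The share of members in clusters 4 and 6 was much the same in the shallower and deeper members, at 49.6 and 54.6% in the male library and 63.7 and 56.0% in the female library, with overlapping intervals.

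Members were first compared with Aldh1a1 Sox6 nuclei, to ask what else differs where Aldh1a1 was detected without Sox6. At matched depth (213 male and 180 female nuclei of each class), the members held more RNA of Chrm2, Col23a1, Sorcs3 and Tacr3 and less of Hs6st3, Grin2c and Lmo3. Aldh1a1 nuclei without Sox6 that held Calb1, Anxa1 or Otx2 lay near or beyond the members in several of these genes. Without depth matching, they had Sorcs3 at 282 and 337 CPM against 221 and 242 CPM in all members. Col23a1 was at 90.1 and 221 CPM against 87.5 and 133 CPM. Tacr3, at 189 and 170 CPM against 215 and 187 CPM, was a little lower in them. Hs6st3 was at 642 and 659 CPM against 687 and 695 CPM. Of 7644 genes tested, 295 were higher in the members (3.86% of the genes tested) and 218 lower (2.85%) in edgeR (quasi-likelihood test, Benjamini-Hochberg adjusted p under 0.05), together 6.71%. All 513 had the same direction in both libraries. The counts were 66 and 44 with DESeq2, 81 and 31 without the library as a block, and 0 and 0 without a filter on low counts in edgeR, where 927 genes had an unadjusted p under 0.05. With 1 pooled library per sex, the p-values rest on the sums of 2 libraries, paired in the fit. They do not cover the spread between mice. The SE of a gene can be small although its libraries differ. For Tacr3 it was 0.21, with differences of log2(CPM + 1) of 3.19 (male) and 1.91 (female).

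Among the higher genes of largest fold change was Chrm2, a muscarinic acetylcholine receptor. It was at 40.7 CPM in the male members and 49.2 CPM in the female ones, against 3.12 and 3.27 CPM in the Aldh1a1 Sox6 nuclei (log2 fold change 3.71, SE 0.51, adjusted p = 2.59e-11). Only 4 UMIs stood behind the value of the compared nuclei, and the fold change of Chrm2 was 5.52 with another draw of them, 7.80 without the highest Scrublet scores and 2.46 without depth matching. Without depth matching Casr (3.08), Col23a1 (2.71) and Piezo2 (2.65) had larger changes. Col23a1, a transmembrane collagen, was at 87.7 and 126 CPM against 10.9 and 11.4 CPM (log2 fold change 3.21, SE 0.32, adjusted p = 9.82e-21). In both genes the 2 classes stood far apart in each library. The mechanically gated channel Piezo2 was at 54.8 and 54.1 CPM against 9.36 and 6.54 CPM (2.72 on the log2 scale, adjusted p = 3.76e-10). Sorcs3, a sorting receptor of neurons, was at 218 and 223 CPM against 35.9 and 34.3 CPM (2.62, adjusted p = 1.57e-32). Tacr3, the neurokinin B receptor at chr3:134829007-134934579, was at 222 and 194 CPM against 23.4 and 50.7 CPM (2.47, SE 0.21, adjusted p = 7.67e-29).

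Other genes of this group had changes of similar size. Log2 fold changes were 2.69 for the calcium-sensing receptor gene Casr, 2.51 for Npsr1, the receptor of neuropeptide S, and 2.49 for Car8, a protein related to carbonic anhydrases. A830018L16Rik was higher by 2.60 on this scale. Few UMIs stood behind the compared nuclei, 1 (male) and 6 (female) for Casr, 8 and 2 for Npsr1 and 3 and 1 for Car8, and the libraries differed in size of change. By library, the differences of log2(CPM + 1) were 3.79 (male) and 1.96 (female) for Casr, 2.09 and 3.18 for Npsr1, 1.68 and 3.08 for Car8 and 3.12 and 2.06 for A830018L16Rik. After thinning to 1000 UMIs, Npsr1 lost its call (1.52, adjusted p = 0.147). Dkk2, a secreted regulator of Wnt signalling, had 21 UMIs in the members and 3 in the compared nuclei, a ratio of 7.03 with an exact 95% interval of 2.10 to 36.8 for counting error. Dkk2 lost its call without the highest Scrublet scores (log2 fold change 1.73, adjusted p = 0.150) and without the library as a block (adjusted p = 0.172). Without depth matching, changes were smaller for Dkk2 (1.28), A830018L16Rik (1.36), Car8 (1.67), Sorcs3 (1.87) and Tacr3 (1.52), all still past the threshold.

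Several abundant genes, named after their values were seen, moved with them. Kcnab1, a potassium channel beta subunit, was at 335 and 358 CPM in the members against 70.2 and 53.9 CPM in the Aldh1a1 Sox6 nuclei (log2 fold change 2.45, SE 0.17, adjusted p = 1.02e-45). Grin2a, an NMDA receptor subunit, was at 879 and 841 CPM against 329 and 261 CPM (1.52, SE 0.09, adjusted p = 2.80e-54). Without depth matching the change of Grin2a was 0.81. Etl4, Thsd7b and the transcription factor gene Foxp2 were higher by 1.26, 1.51 and 1.19 on the log2 scale. The groups of library values did not overlap for any of these 5 genes.

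Otx2os1, a long non-coding RNA, was also higher, although no member held an Otx2 UMI. It lies at chr14:48668708-48870683 on the plus strand, and 5112 bases of it overlap Otx2, which lies at chr14:48657677-48673819 on the minus strand. It was at 102 and 103 CPM in the members against 15.6 and 21.2 CPM in the Aldh1a1 Sox6 nuclei (log2 fold change 2.44, SE 0.29, adjusted p = 8.03e-15). It was likewise named after its values were seen.

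Among the genes that were lower, Hs6st3, a heparan sulfate sulfotransferase at chr14:119138341-119869815, had the most UMIs of the 10 with the largest fold changes. It was at 674 and 690 CPM in the members against 2105 and 1879 CPM in the Aldh1a1 Sox6 nuclei (log2 fold change -1.57, SE 0.07, adjusted p = 4.56e-120). Grin2c, another NMDA receptor subunit, was at 28.2 and 37.7 CPM against 88.9 and 145 CPM (-1.84, SE 0.25, adjusted p = 1.45e-11). The NMDA receptor subunits Grin2a and Grin2c thus moved in opposite directions. Pex5l, an auxiliary protein of hyperpolarization-activated channels that was named after its values were seen, was at 1075 and 877 CPM against 2547 and 2580 CPM (-1.42, SE 0.06, adjusted p = 1.79e-124).

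The rest of this group held genes of lower level. Flcn, the folliculin gene, was lower by 2.75 on the log2 scale (4 UMIs against 28) and Epas1, a hypoxia-inducible transcription factor gene, by 2.18 (9 UMIs against 41). The calcium pump gene Atp2a3 and the sialyltransferase gene St3gal4 had log2 fold changes of -1.78 and -1.62. 9330154J02Rik, Lrrc24, Yipf2 and Scand1 had changes of -1.85, -1.74, -1.63 and -1.63 and adjusted p-values between 0.0123 and 0.0391. Lrrc24 lost its call without depth matching (-1.03).

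**Figure D3:**
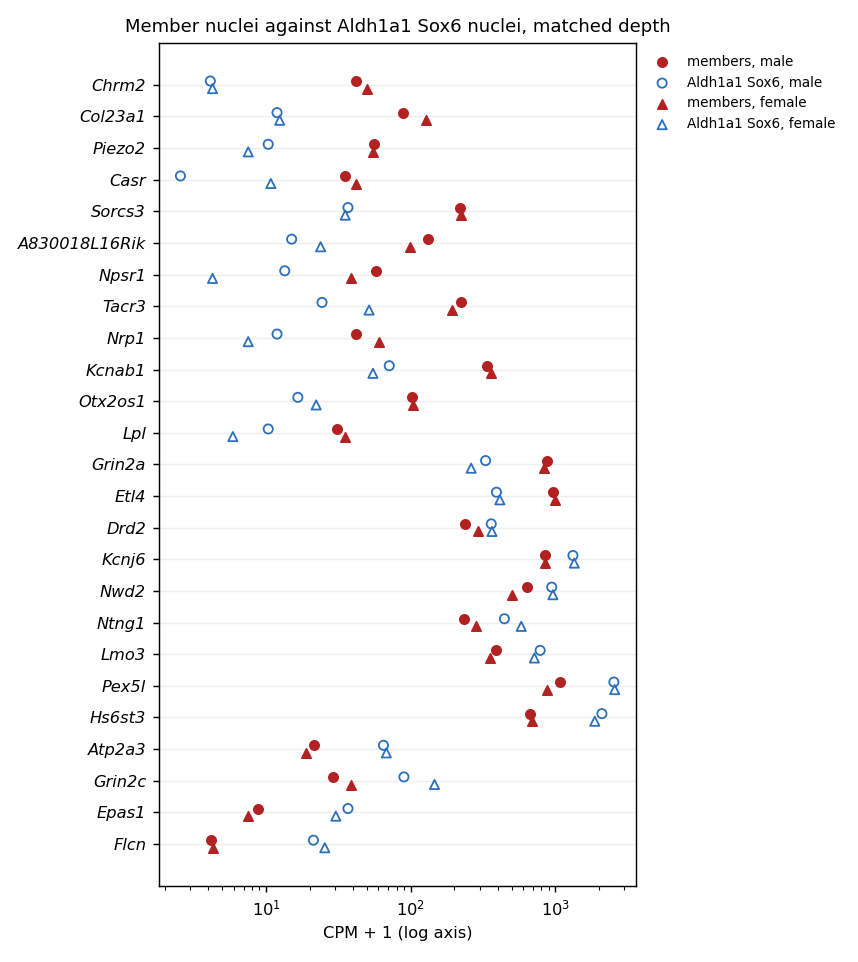
Level of 25 genes (CPM + 1, log axis) in members (filled) and depth-matched Aldh1a1 Sox6 nuclei (open), a point for each library (circle, male; triangle, female); genes are ordered by log2 fold change. Chrm2 and Col23a1 lie at the top and Flcn at the bottom, and the classes do not overlap for any gene shown.

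By role, counts of genes that passed stand beside 3.86% higher and 2.85% lower over all genes tested. Of the 8 genes of dopamine synthesis, storage and reuptake, 5 were tested and none passed (median log2 fold change -0.04, against -0.00026 over all genes tested). At matched depth, Th was at 367 and 492 CPM in the members and 329 and 453 CPM in the Aldh1a1 Sox6 nuclei (log2 fold change 0.11, SE 0.10, adjusted p = 0.712). For Slc6a3 the change was -0.19 (SE 0.08, adjusted p = 0.215), for Ddc -0.06 (SE 0.07) and for Slc18a2 -0.04 (SE 0.08). None of the 6 tested genes of dopamine breakdown and aldehyde dehydrogenases passed, and none of the 3 tested of 17 retinoid pathway genes.

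Among 9 transcription factors of dopaminergic identity, 8 were tested and 1 passed. Lmx1a, which specifies midbrain dopamine progenitors, was at 31.3 and 62.3 CPM in the members against 17.2 and 27.8 CPM (log2 fold change 1.03, SE 0.31, adjusted p = 0.0222). The female Aldh1a1 Sox6 nuclei came close to the male members in this gene, and the compared values rested on 11 and 17 UMIs. Over all nuclei of both classes, not matched on depth, Lmx1a was at 34.1 and 62.4 CPM in the members and 32.6 and 39.7 CPM in the Aldh1a1 Sox6 nuclei, and the call was lost (log2 fold change 0.36, adjusted p = 0.473). The channels and receptors that set firing and autoinhibition changed in 4 of 9 tested genes. Kcnj6, a GIRK potassium channel subunit that couples to the D2 autoreceptor, was at 846 CPM in the members of both libraries against 1326 and 1355 CPM (-0.69, SE 0.07, adjusted p = 1.06e-21). Drd2, that receptor, was at 237 and 290 CPM against 360 and 364 CPM (-0.49, SE 0.12, adjusted p = 0.000888). Kcnd3, an A-type potassium channel gene, was lower by 0.26 and Kcnip4, which codes for a partner of such channels, higher by 0.16.

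Genes that earlier results paired with Sox6 neurons were mostly lower. Of 12 tested, 7 were lower and 1, Tacr3, was higher, with a median log2 fold change of -0.66. The list was chosen with results of these samples known and is not independent evidence of its direction. Besides Grin2c, the lower genes included Lmo3, a transcriptional cofactor gene, at 392 and 356 CPM in the members against 786 and 717 CPM (-1.03, SE 0.09, adjusted p = 1.45e-26). Ndnf, a secreted neurotrophic factor gene, had a change of -0.99, the potassium channel subunit gene Kcns3 -0.91 and the growth factor gene Fgf1 -1.41. Nwd2 and the receptor tyrosine kinase gene Alk had changes of -0.78 and -0.51.

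Of 14 genes known from ventral tegmental dopamine neurons, 6 were tested and 2 were higher. Lpl, lipoprotein lipase, was at 29.8 and 34.4 CPM in the members against 9.36 and 4.90 CPM (log2 fold change 2.10, SE 0.47, adjusted p = 0.000227). Nfib, a transcription factor gene, rested on fewer UMIs (27 against 9) and was higher by 1.55 (adjusted p = 0.0471). Its differences of log2(CPM + 1) were 0.55 (male) and 3.28 (female), with 8 and 1 UMIs in the compared nuclei. None of the tested genes of glutamate and GABA transmission (2 of 8), neuropeptides (1 of 15) and oligodendrocyte markers (2 of 6) passed, and no marker of oligodendrocyte precursors, astrocytes, endothelial cells or serotonergic neurons had enough counts to be tested.

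The axon guidance genes split evenly, with 6 of 21 tested genes higher and 6 lower. The semaphorin receptors Nrp1 and Nrp2 were higher by 2.45 (SE 0.39, adjusted p = 3.00e-08) and 2.03 (SE 0.47, adjusted p = 0.000576) on the log2 scale. The semaphorins Sema5a and Sema6a, the ephrin Efna5 and the Slit receptor Robo1 were higher by 1.32, 1.50, 0.56 and 0.22. Without depth matching the changes were 1.84 for Nrp1, 1.00 for Nrp2 and 0.83 for Sema6a. Ntng1, a netrin-G adhesion gene, was at 233 and 282 CPM in the members against 445 and 582 CPM (-1.01, SE 0.11, adjusted p = 2.35e-18). Robo2 and Sema6d had changes of -0.42 and -0.51, and the ephrin receptor genes Epha3 and Epha5 and the netrin receptor gene Unc5c -0.79, -0.23 and -0.27. Members of the same families thus lay on both sides.

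The differences varied with the cluster a member fell in. Otx2os1 was at 173 and 156 CPM in the members of clusters 4 and 6 and at 13.3 and 11.3 CPM in the members of clusters 1, 2 and 3. Tacr3 was at 338 and 267 CPM in the former and 70.8 and 84.8 CPM in the latter. Hs6st3 ran the other way, at 355 and 304 CPM against 1257 and 1678 CPM, as did Lmo3, at 240 and 209 CPM against 695 and 701 CPM. In each of these genes the 2 groups of members were further apart than the libraries.

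Aldh1a1 Sox6 nuclei were also split by cluster. The clusters were built from the RNA of these nuclei, so that classes within a cluster are alike in part by construction. In clusters 4 and 6 they had Otx2os1 at 80.0 and 77.8 CPM and Hs6st3 at 706 and 652 CPM, and in clusters 1, 2 and 3 they had Otx2os1 at 9.34 and 8.20 CPM and Hs6st3 at 2199 and 1957 CPM. When the depth-matched test was repeated within clusters 4 and 6 (44 male and 53 female nuclei of each class), 15 genes were higher and 18 lower of 3690 tested. Of the 513 genes that differed over all clusters, 422 were tested there, 303 of them with the same sign, and 28 were called there, 26 with the same sign. Of 36 genes named here that passed over all clusters, 6 kept their sign and call, 20 kept their sign only and 10 turned in this draw of matched nuclei. Col23a1 kept its call at 2.81 (adjusted p = 1.28e-09), whereas Sorcs3 was at 0.39 (adjusted p = 0.704) and Piezo2 at 0.23 (adjusted p = 0.970). Without matching on depth, Sorcs3 was at 355 and 388 CPM in the members there against 185 and 220 CPM in the Aldh1a1 Sox6 nuclei. Piezo2 was at 92.1 and 79.2 CPM against 44.1 and 33.1 CPM. Etl4 turned from 1.26 to -0.47 (adjusted p = 0.0031), and Nrp1 and Thsd7b from 2.45 to -0.63 and from 1.51 to -0.54, both short of the threshold. Over all nuclei of the 2 classes in clusters 4 and 6, not matched on depth, the members were not below the Aldh1a1 Sox6 nuclei in these genes. Etl4 was at 1468 and 1334 CPM against 1150.2 and 1013 CPM, Thsd7b at 466 and 470.2 CPM against 356 and 372 CPM, and Nrp1 at 78.2 and 81.9 CPM against 52.4 and 36.4 CPM. The turns of Etl4, Thsd7b and Nrp1 therefore hold for the matched nuclei only. Matching kept 44 of the 124 male and 53 of the 121 female members of these clusters, and they were deeper. Their median depths were 3628 and 4105 UMIs, against 2650 and 2726 UMIs for all members there. Robo1, which also turned, was lower in the members without matching too, at 1485 and 1632 CPM against 1536 and 1665 CPM. Drd2, another gene that turned, was at 187 and 256.2 CPM in the members against 257 and 254.9 CPM. Within clusters 1, 2 and 3 (81 and 57 nuclei of each class), none of 3646 genes passed in edgeR, 223 had an unadjusted p under 0.05, and 310 of 364 tested genes of the 513 kept their sign. These fits were chosen after the data were seen, and they held fewer nuclei than the comparison over all clusters.

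**Figure D4:**
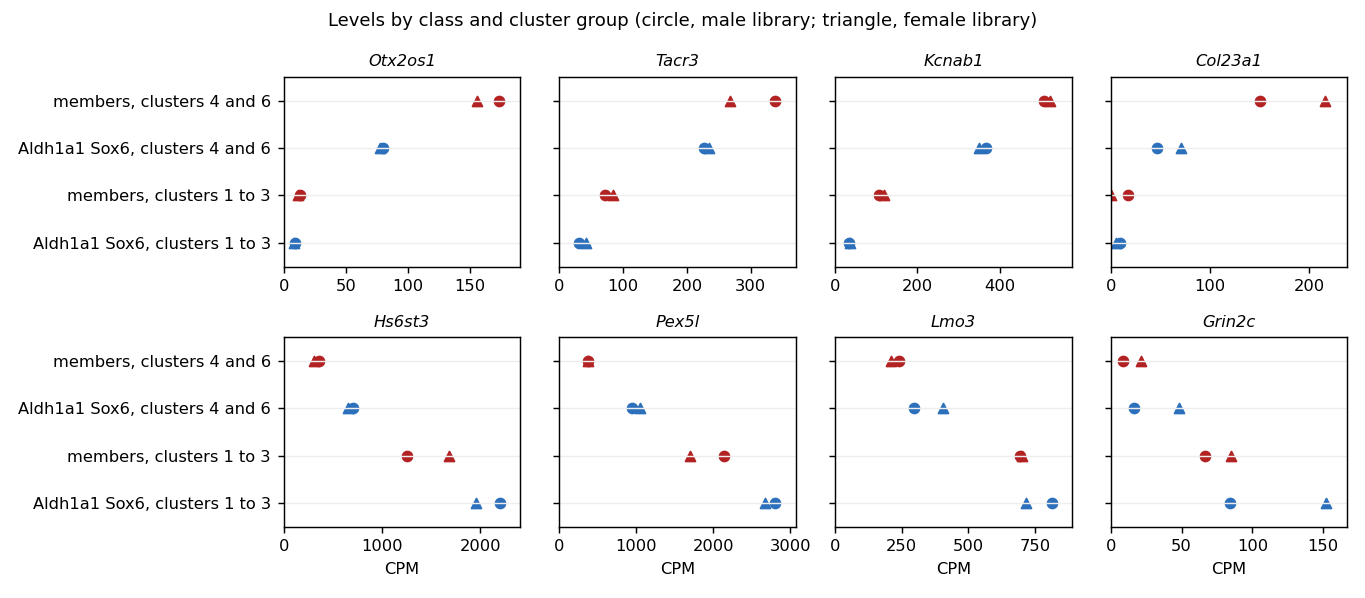
Level (CPM, linear axis from 0) of 8 genes in members (red) and Aldh1a1 Sox6 nuclei (blue) of clusters 4 and 6 and of clusters 1 to 3, a point for each library (circle, male; triangle, female), over all nuclei of the class. For Otx2os1 the members of clusters 4 and 6 lie at 173 and 156 CPM and those of clusters 1 to 3 at 13.3 and 11.3 CPM.

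Members were next compared with all other kept nuclei at matched depth, 3 other nuclei to each member. Of 10091 genes tested, 202 were higher (2.00%) and 185 lower (1.83%, together 3.84%) in edgeR at an adjusted p under 0.05, all in the same direction in both libraries. Nuclei with Aldh1a1 and Sox6 were part of the compared nuclei, and without them 197 genes were higher and 177 lower. Fitted without the library as a block, the counts dropped to 17 and 8.

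Higher genes of largest fold change were of low level. Eya1, a transcriptional coactivator gene, was at 60.8 and 81.2 CPM in the members against 7.41 and 10.4 CPM in the other nuclei (log2 fold change 2.98, SE 0.29, adjusted p = 6.69e-15). Grp, gastrin-releasing peptide, was at 17.8 and 28.1 CPM against 3.95 and 2.08 CPM (2.86, SE 0.47, adjusted p = 2.32e-06), the only neuropeptide gene of 3 tested to pass. Piezo2, higher against the Aldh1a1 Sox6 nuclei too, was at 53.4 and 53.1 CPM against 11.4 and 8.85 CPM (2.38, SE 0.30, adjusted p = 8.35e-10). The growth factor gene Vegfc and the transcription factor gene Dach2 were higher by 2.39 and 2.05 on the log2 scale. Changes for 2610042L04Rik, Pmfbp1, Fam163a, Cchcr1 and the orphan receptor gene Gpr83 lay between 1.89 and 2.98, with 14 to 64 UMIs in the members. Without depth matching, Vegfc and Dach2 had changes of 1.70 and 1.26, and Cchcr1 lost its call (1.07). Several of these genes were about as high in the Aldh1a1 nuclei without Sox6 that held Calb1, Anxa1 or Otx2. There, not matched on depth, Eya1 was at 84.3 and 65.1 CPM and Piezo2 at 46.5 and 86.9 CPM. Fam163a was at 55.2 and 76.0 CPM, against 50.4 and 46.8 CPM in the members. Grp (8.72 and 21.7 CPM), 2610042L04Rik (5.81 and 7.24 CPM) and Cchcr1 (8.72 and 0 CPM) were lower there than in the members.

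Lower genes were led by Gad2, which makes GABA, with 2 UMIs in the members and 83 in the other nuclei. The ratio was 0.0723, with an exact 95% interval of 0.00861 to 0.269 for counting error. Gad2 in the other nuclei was highest in clusters 8 and 12, at 91.5 to 374 CPM. Bdnf, a neurotrophin gene, was at 5.93 and 4.68 CPM in the members against 21.3 and 29.7 CPM (log2 fold change -2.23, SE 0.47, adjusted p = 0.000434). Unc5d, a netrin receptor gene, was at 80.1 and 37.5 CPM against 240 and 231 CPM (-1.99, SE 0.15, adjusted p = 3.17e-20). Ptprk, a receptor phosphatase gene, had a change of -2.15 (adjusted p = 8.69e-07). Ccdc192, Flcn, Iqank1, Gng12, Sntg2 and Lypd1 had changes between -2.41 and -1.89, with 4 to 8 UMIs in the members.

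Cacna2d3, an auxiliary subunit gene of calcium channels named after its values were seen, was lower as well. It was at 225 and 247 CPM in the members against 701 and 725 CPM in the other nuclei (log2 fold change -1.60, SE 0.09, adjusted p = 3.30e-29). Etl4, Kcnab1, Thsd7b and Otx2os1 were higher than in the other nuclei, by 1.27, 1.33, 1.32 and 1.24 on the log2 scale, and Foxp2 by 0.52. Grin2a, higher against the Aldh1a1 Sox6 nuclei, had a change of -0.13 here (adjusted p = 0.461). Pex5l was lower by 0.74. These genes too were named after their values were seen. Over all kept nuclei, Cacna2d3 was at 665 and 693 CPM and Pex5l at 1606 and 1715 CPM. Both were lower in the nuclei of clusters 4 and 6 that were not members, at 207 and 253 CPM and 501 and 588 CPM. Etl4, Kcnab1, Thsd7b, Otx2os1, Foxp2 and Grin2a were abundant in those nuclei. Kcnab1 was at 519 and 518 CPM in those nuclei, against 508 and 523 CPM in the members of the same clusters and 340 and 354 CPM in all members. Otx2os1 was at 166 and 127 CPM against 173 and 156 CPM in the members of these clusters and 104 and 99.9 CPM in all members. The members of clusters 4 and 6 stood above their neighbours in Etl4 (1468 and 1334 CPM against 969 and 875 CPM), Thsd7b (466 and 470.2 CPM against 342 and 365 CPM) and Foxp2 (715 and 811 CPM against 648 and 724 CPM). No test was made of these levels. The comparisons with Aldh1a1 Sox6 nuclei and with all other nuclei share the member nuclei.

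**Figure D5:**
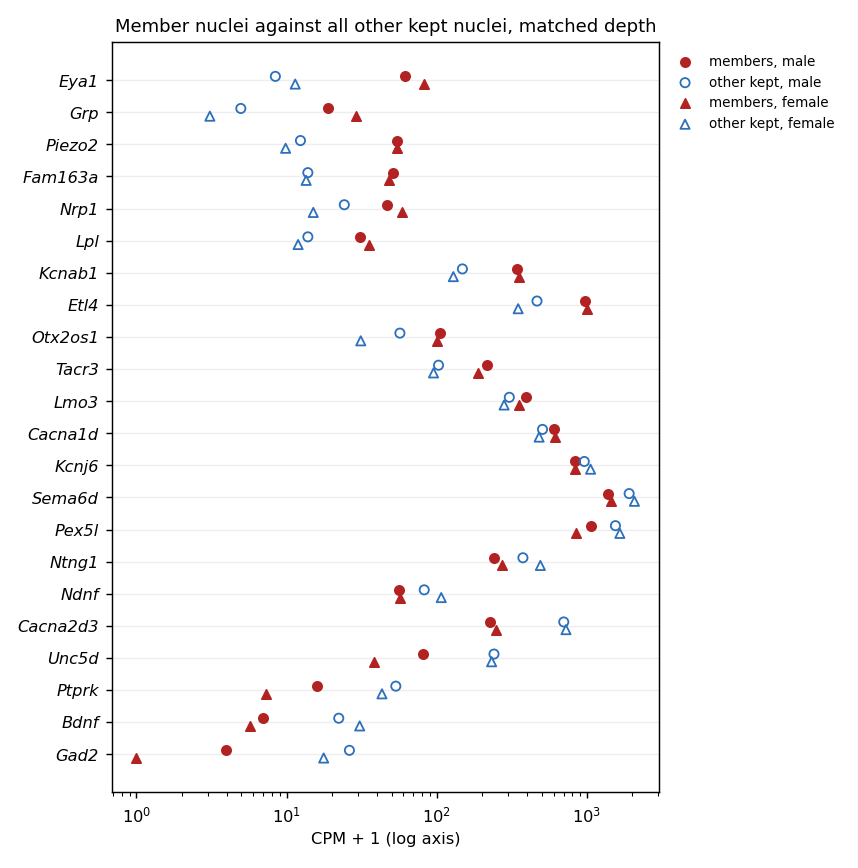
Level of 22 genes (CPM + 1, log axis) in members (filled) and depth-matched other kept nuclei (open), a point for each library (circle, male; triangle, female); genes are ordered by log2 fold change. Of the genes plotted, Eya1 and Grp lie at the top and Gad2 at the bottom, where the female members are at 0 CPM.

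Counts by list against all other nuclei stand beside 2.00% higher and 1.83% lower over all genes tested. Tacr3 was at 215 and 187 CPM against 102 and 94.2 CPM (log2 fold change 1.03, SE 0.12, adjusted p = 8.84e-11). Lmo3, lower against Aldh1a1 Sox6 nuclei, was higher here, at 395 and 354 CPM against 303 and 280 CPM (0.36, SE 0.09, adjusted p = 0.0049). Lmx1a ran the opposite way and was lower here, at 34.1 and 62.4 CPM against 65.2 and 84.8 CPM (-0.65, SE 0.20, adjusted p = 0.0463), the only one of 9 identity factors to pass. Both genes thus stood between the Aldh1a1 Sox6 nuclei and the other kept nuclei at matched depth. Over all Aldh1a1 Sox6 nuclei, not matched on depth, Lmx1a was at 32.6 and 39.7 CPM, and its call against them was lost.

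Of 12 genes paired with Sox6 neurons, 2 were higher and 5 lower (median log2 fold change -0.52, against -0.0035 over all genes tested). The lower genes were Grin2c (-0.87), Ndnf (-0.75), Kcns3 (-0.56), Nwd2 (-0.49) and the vesicular transporter-like gene Tmem163 (-1.13). Among 11 channel and autoreceptor genes, Cacna1d, a pore subunit of the calcium channels tied to pacemaking, was higher by 0.30 (SE 0.08, adjusted p = 0.00512) and Kcnj6 lower by 0.28. Lpl and Grp were the 2 of 7 tested ventral tegmental genes to pass, Lpl with a change of 1.41. Of 22 axon guidance genes, Nrp1 was higher (1.46) and Unc5d, Ntng1 (-0.75) and Sema6d (-0.50) were lower. Gad2 was the only one of 3 tested genes of glutamate and GABA transmission to pass. None of the 7 tested dopamine synthesis, storage and reuptake genes passed, nor any of 8 genes of dopamine breakdown and aldehyde dehydrogenases, 8 retinoid pathway genes and 2 oligodendrocyte markers.

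Nearest by the rule were the 152 nuclei with Aldh1a1 and without Sox6 that held Calb1, Anxa1 or Otx2. At matched depth (62 male and 75 female nuclei of each class) none of 4340 genes passed in edgeR at an adjusted p under 0.05 (0.00%), and none in DESeq2. In edgeR 274 genes had an unadjusted p under 0.05, and another random draw of the matched nuclei gave 7 genes higher and 17 lower. Otx2os1 was at 80.7 and 101 CPM in the members against 161 and 194 CPM in these nuclei (log2 fold change -0.94, SE 0.22, adjusted p = 0.533). Kcnab1 had a change of -0.37 (SE 0.16) and Lmo3 of 0.14 (SE 0.18). Larger changes, picked after their values were seen, were -1.60 for Unc5d, 1.30 for Alk, -0.93 for Thsd7b and 0.92 for Nwd2. Each had the same sign in both libraries and missed the threshold (adjusted p = 0.516). Without matching on depth, Chrm2 was at 40.0 and 49.9 CPM in the members against 90.1 and 97.7 CPM. Clusters 4 and 6 held 68.4% of these nuclei (exact interval 60.4 to 75.7%) and 55.7% of the members (50.9 to 60.4%). With at least 3 Aldh1a1 UMIs required, 22 genes were higher and 12 lower. A gene that missed the threshold is not shown to be alike in both classes.

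Members with more Aldh1a1 lay near those at the threshold in some genes and apart in others. Members with 3 or more Aldh1a1 UMIs had Otx2os1 at 108 CPM (male) and 88.4 CPM (female), against 100 and 114 CPM in those with 2. Hs6st3 was at 709 and 744 CPM against 667 and 635 CPM, and Tacr3 at 228 and 180 CPM against 204 and 197 CPM. Npsr1 was at 76.0 and 57.0 CPM against 36.3 and 10.3 CPM, Lpl at 38.0 and 45.6 CPM against 22.3 and 20.7 CPM, and Cacna2d3 at 177 and 185 CPM against 268 and 321 CPM. These genes were picked after their values were seen. Nuclei just outside the rule, with 1 Sox6 UMI, are part of the Aldh1a1 Sox6 nuclei and had Otx2os1 at 43.5 and 26.1 CPM and Hs6st3 at 1595 and 1275 CPM. Those with 1 Aldh1a1 UMI had Otx2os1 at 137 and 75.7 CPM and Hs6st3 at 692 and 507 CPM. No test was made among these groups.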

How the data were processed

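Nuclei were profiled with the 10x Genomics 3' kit as 1 library of male and 1 of female mice, both of the same group, taken from the labels. Per the submitters' processing notes and the methods, the authors aligned reads to mm10 with Cell Ranger 6.0.0, introns included, and deposited a matrix of raw UMI counts for each library, before their minimum of 500 features. Reads of genes that overlap or have close paralogs may be split or dropped at that step. No deposited column was left unmapped (0). CPM scales counts to 1e+06 UMIs of a class and library.

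The members, gene lists and tests were chosen with earlier results of these data known. UMIs were summed per class and library over nuclei matched on depth and tested with edgeR 4.0.16 (quasi-likelihood, TMM, filterByExpr, library as a block, Benjamini-Hochberg threshold 0.05). The 5 genes of the rule entered library sizes but no test. The block pairs the sums of a library, which come from the same mice. Values of a single library are differences of log2(CPM + 1) and carry no test. The edgeR test was also run on simulated sums. It recovered 50.6% of changes of 1 on the log2 scale for Aldh1a1 Sox6 nuclei. The share was 46.3% for all other nuclei and 60.0% for Aldh1a1 nuclei without Sox6 that held Calb1, Anxa1 or Otx2. Of its calls, 4.08, 8.45 and 4.96% were of unchanged genes. Clusters came from Seurat 5.3.0 with sctransform 0.4.2 in R 4.3.3 (2991 features, 30 principal components, resolution 0.5) and are called by number only. Doublets were not removed: Scrublet called 1 nucleus, so nuclei with the highest 6% of scores were left out as an alternative. DESeq2 1.42.0 was another.

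The text names all genes of the fixed lists that passed, the 10 genes with the largest fold change in each direction among those past the threshold, of the same sign in both libraries and at 10 CPM or more in both libraries of the higher class, and, said to be so, genes named after their values were seen. The precision is set by 2 libraries: 674222 and 640730 UMIs in the male and female members. The level of 1 gene is not reported here.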

Additional observations from a re-analysis of the deposited data

How the results depend on the processing

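With 2 libraries of pooled mice, the spread between mice was not measured, and a library left out leaves values without a test. Against Aldh1a1 Sox6 nuclei, the main counts of 295 genes higher and 218 lower became 66 and 44 with DESeq2, 167 and 111 with a minimum of 1000 features, 183 and 172 after thinning to 1000 UMIs, 198 and 137 with at least 3 Aldh1a1 UMIs, and 217 and 114 with library size alone. Without a filter on low counts they were 0 and 0 in edgeR (927 genes at an unadjusted p under 0.05), within clusters 4 and 6, added after the data were seen, 15 and 18, and within clusters 1, 2 and 3, also added, 0 and 0 (223 at an unadjusted p under 0.05). Without the library block, which drops the pairing of sums by library, they were 81 and 31. Against all other nuclei, 202 higher and 185 lower became 40 and 34 with DESeq2, 92 and 111 after thinning, 119 and 108 with at least 3 Aldh1a1 UMIs, 151 and 116 with library size alone, 231 and 310 without depth matching, and 17 and 8 without the library block. Against Aldh1a1 nuclei without Sox6 that held Calb1, Anxa1 or Otx2, the 0 calls became 22 and 12 with at least 3 Aldh1a1 UMIs, 7 and 17 with another seed, 7 and 12 with a minimum of 1000 features, 11 and 19 without depth matching, and 1 and 0 without high Scrublet scores. The cause of these shifts was not tested.

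Of 94 changes past the threshold, with a gene called in both comparisons counted under each, none changed sign under any alternative outside the 2 sets of clusters that gave it a value. The block left 30 of 94 past the threshold when dropped, DESeq2 32 of the 55 to which it gave an adjusted p, and another seed 86 of 92. Within clusters 4 and 6, among depth-matched nuclei, signs turned for Drd2 (0.00698), Kcnd3 (0.12), Alk (0.088), Kcns3 (0.066), Robo1 (-0.15), Nrp1 (-0.63), Sema5a (-0.41), Sema6d (0.036), Etl4 (-0.47) and Thsd7b (-0.54), although over all nuclei of both classes there, not matched on depth, Kcnd3, Alk, Kcns3, Nrp1, Sema5a, Sema6d, Etl4 and Thsd7b kept their direction in both libraries. Within clusters 1, 2 and 3 signs turned for Alk (0.47) and Unc5c (0.18). Of genes not past the threshold, signs turned for Th within clusters 1, 2 and 3 (-0.18), Ddc (0.00883) and Slc6a3 (0.028) within clusters 4 and 6, and Slc18a2 with a minimum of 1000 features (0.017) and within clusters 1, 2 and 3 (0.031).

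The share of members was 3.65% over both libraries and 3.63 to 3.67% with 1 library left out. It became 1.98% when the rule was applied after thinning, 1.62% with at least 3 and 8.06% with at least 1 Aldh1a1 UMI. The share of members in clusters whose other nuclei had less Sox6 than all kept nuclei was 66.6%, 73.9% at a resolution of 0.8, and 62.6 to 71.3% with 1 library left out.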

Other observations

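The 54 members outside clusters 1, 2, 3, 4 and 6 were few in any cluster. Cluster 5 held 13 male and 7 female members and cluster 8, whose other nuclei had Gad2 at 98.1 and 91.5 CPM, held 8 and 7. Cluster 13, whose other nuclei had the myelin gene Mbp at 481 and 609 CPM, held 6 male members and no female one. Cluster 7, with Calb1 at 160 and 166 CPM in its other nuclei, held 2 and 6.

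Aldh1a7, the paralog next to Aldh1a1, was at 31.0 and 28.3 CPM in the members of clusters 1, 2 and 3 and at 5.58 and 2.64 CPM in those of clusters 4 and 6. No test was made of these values.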
